A study of Mus musculus with 20 samples.

Results

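Collagen, laminin and other basement membrane genes were followed across the cell types of the basolateral amygdala (BLA) of the mouse. The members are the collagen chain genes, the laminin chain genes and Nid1, Nid2, Hspg2, Agrn, Sparc and Fn1 that had at least 10 unique molecular identifier (UMI) counts in total in the 9 libraries used. Of 31053 genes in the count tables, 61 carried such a name and 59 of them passed that total, so that, beside the names, the rule selected on UMI totals and on no other measured value (15743 genes of any name had at least 10 UMIs). The members just inside the limit were Col6a6 and Col9a1 with 14 UMIs and Col28a1 with 15, and the names just outside it were Col17a1 with 7 and Col10a1 with 1.

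A basement membrane is a thin sheet of secreted protein on which endothelial cells rest and into which pericytes and smooth muscle cells are built. Laminins, each a trimer of an alpha, a beta and a gamma chain, and type IV collagen form its networks, which nidogens and the heparan sulphate proteoglycans perlecan and agrin link together. In brain vessels the sheet lies between the endothelium, the mural cells and the end feet of astrocytes, and it is part of the blood-brain barrier.

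All mice were male wild type C57BL/6 animals, 13 weeks old, and all drank BCD (2-hydroxypropyl cyclodextrin), either alone or as the carrier of corticosterone (CORT) at 35 µg/ml, for 6 weeks. One intraperitoneal dose of 10 mg/kg ketamine (Ket) or of saline (Sal) followed, and 24 h after it tissue was taken for 10x Chromium single-cell libraries, 1 per mouse. The 9 libraries were BCD-Sal from mice 9901 and 9947, BCD-Ket from mice 9946, 9949 and 9986, CORT-Sal from mouse 9969, and CORT-Ket from mice 9967, 9968 and 9971. CORT-Sal was therefore a single library, and every test that includes it borrowed the spread of the other groups. The extraction text shared by the samples names the prefrontal cortices, whereas the tissue label of these samples is BLA.

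The 9 libraries held 626 to 4604 barcodes, of which 16.8% to 31.0% (135 to 1274 per library, 5908 in all) had at most 12.5% mitochondrial UMIs and at least 200 genes. The median of the kept barcodes was 826 to 2845 UMIs. Any pair of the 9 libraries shared at most 9 barcodes. Mouse 9970 (CORT-Sal) stood apart, with 97.1% of its barcodes kept, and the member rule leaves it out. Mice 9946, 9947 and 9967 held fewer than 10 microglia-like cells each. Clusters were named from marker lists and the members themselves took no part in the clustering. The named classes were astrocyte-like (1387 cells), endothelial-like (1085), excitatory neuron-like (1075), microglia-like (857), oligodendrocyte precursor-like (401), oligodendrocyte-like (373), inhibitory neuron-like (317) and mural-like (268), besides 5 small classes of 26 to 37 cells. The "-like" is understood below. Of the endothelial markers 15 of 15 and of the mural markers 18 of 19 stood out in a cluster of their class. In a smaller endothelial cluster of 75 cells 11 of 15 did. The excitatory neuron class had fewer of its 13 markers, with 6 in a cluster of 790 cells, 9 in one of 265 and 4 in one of 20.

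The vessel wall held the largest part of the 29769 member UMIs, with 34.8% in endothelial and 11.8% in mural cells. Microglia held 21.5%, astrocytes 10.4% and excitatory neurons 10.1%. As a share of a library's UMIs within a class, the members made up 0.532% ± 0.0715 in mural cells (SD, n = 7 mice), 0.432% ± 0.0638 in endothelial cells (n = 9), 0.386% ± 0.0279 in microglia (n = 6) and 0.0358% ± 0.00840 in oligodendrocytes (n = 8). The microglial share was almost wholly 1 gene, Sparc, and was 0.0452% ± 0.00778 without it. The 27 fibroblast-like cells, from 5 mice and never 10 in a library, had the highest pooled share at 1.11%. Values below are CPM, the UMIs of a gene per 1000000 UMIs of a class in a library with at least 10 cells of that class. They are compared between classes for 1 gene at a time, since a 3′ UMI count is not a level per length across genes.

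**Figure D1:**
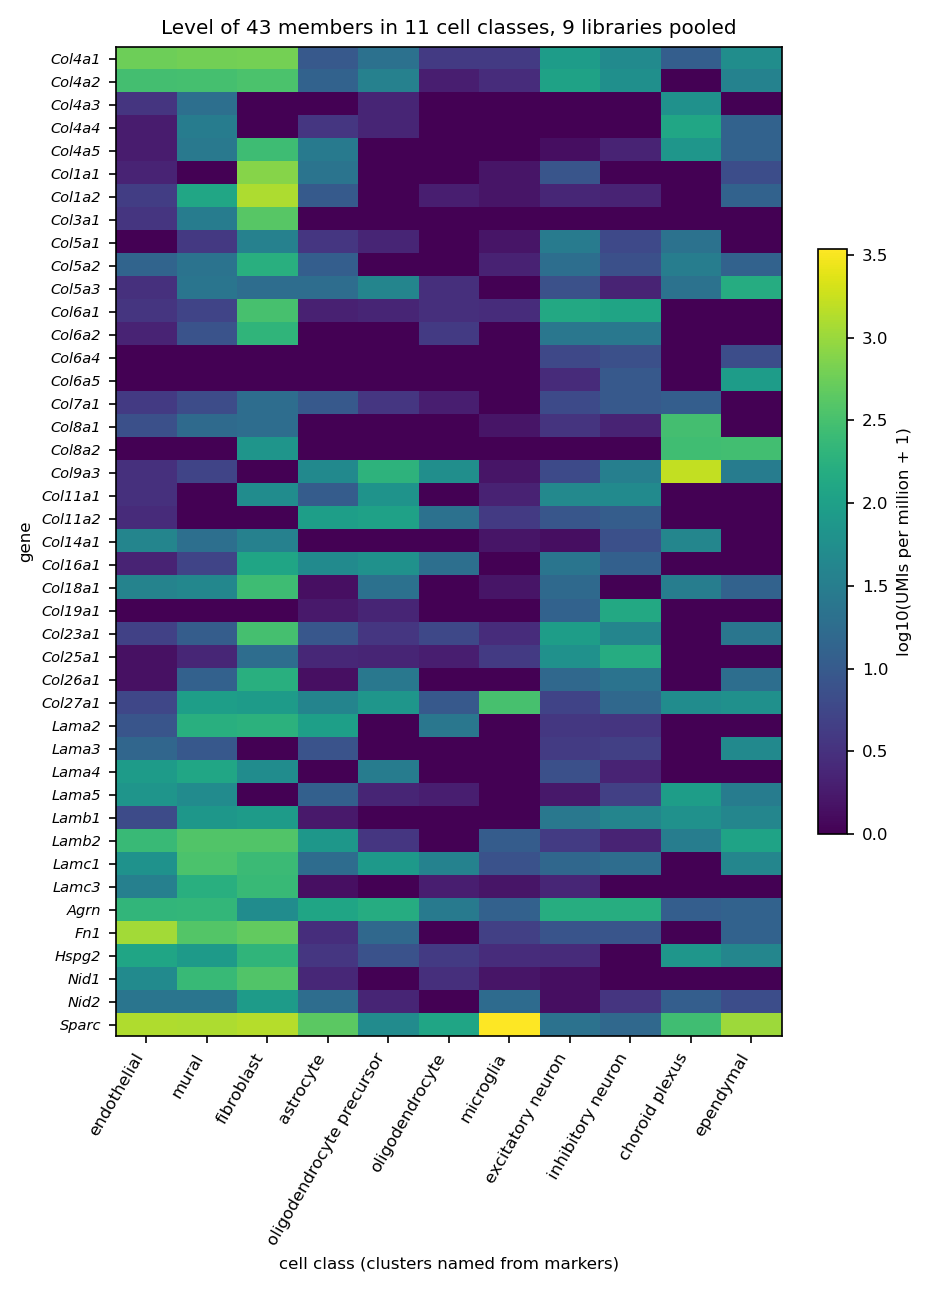
Level of the 43 members that passed the filter on low counts used below (one line per gene) in 11 cell classes (columns), as log10 of pooled CPM plus 1 on the colour scale. Col4a1, Col4a2, Lamb2, Nid1 and Fn1 were high in the endothelial, mural and fibroblast columns, Sparc and Col27a1 in the microglia column, and Col6a1 and Col23a1 in the fibroblast and neuron columns.

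The type IV collagen genes Col4a1 and Col4a2, whose chains form the most common type IV trimer, lay head to head on chromosome 8 (Col4a1 at 11198423 to 11312826 on the minus strand and Col4a2 at 11312805 to 11449287 on the plus strand, NCBIM37, GENCODE M1). Their annotated first exons shared 22 bases. These bases are shown because the pair is read out together below. In RefSeq on GRCm38.p6 they are the plus strand of chr8:11312805-11312826, with the GC box GGGCGG in capitals:
Col4a1 and Col4a2 shared first exon bases: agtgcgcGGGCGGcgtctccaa
The letters GGGCGG, on either strand, stood in 63.8% of the 47 start-site windows (promoter and first transcribed bases, equal in length) matched to 42 members, against 35.7% of 32851 windows of all genes. CCAAT stood in 29.8% against 37.4%, and TATAAA in 6.38% against 13.6%. These are letter matches without a test. Col4a4 with Col4a3 and Col4a6 with Col4a5 were the other head-to-head pairs among the 9 member pairs within 100000 bases of each other. In 5 of the 9 pairs both genes had their highest mean level in the same class. The share of all neighbouring genes alike in this was not counted. Among the 5, Col6a5 and Col6a4 had 27 and 20 UMIs. The 2 other head-to-head pairs were highest in choroid plexus, a class with 2 libraries. Pooled over mice, however, Col4a5 (274 against 71.6 CPM) and Col4a6 (120 against 20.5 CPM) were higher in the fibroblast-like cells, which had no library mean. Col4a6 had 24 UMIs in all, and its choroid plexus level lay under the 30.7 CPM that 3 counts make there.

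Col4a1 was at 548 ± 121 CPM in endothelial cells (SD, n = 9, range 384 to 687) and at 697 ± 177 CPM in mural cells (n = 7, range 454 to 1026). Col4a2 was at 288 ± 75.5 CPM and 312 ± 105 CPM in the same classes. The ranges of the endothelial and mural libraries overlapped for both genes. Oligodendrocytes and microglia, which should lack them, held 3 and 5 UMIs of Col4a1 among 1014785 and 1647367 UMIs. In excitatory neurons Col4a1 stood at 85.0 ± 31.3 CPM and Col4a2 at 85.4 ± 46.0 CPM (n = 9).

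The share of Col4a2 among the UMIs of the pair differed between vessel cells and neurons, and the pooled shares of astrocytes and oligodendrocyte precursors lay near the neuronal one. It was 34.2% in endothelial cells (exact binomial 95% interval 32.1 to 36.3, 706 of the UMIs against 1359 of Col4a1), 33.8% in mural cells (30.2 to 37.6) and 35.1% in fibroblasts (22.9 to 48.9). It was 55.4% in excitatory neurons pooled (51.2 to 59.5, 319 against 257) and 54.1% in inhibitory neurons (43.0 to 65.0). Astrocytes had 58.2% (44.1 to 71.3, 32 against 23) and oligodendrocyte precursors 63.4% (46.9 to 77.9, 26 against 15). The higher pooled share was thus not particular to neurons, but in each of these 2 classes only 2 mice had at least 10 UMIs of the pair. Astrocytes were at 72.7% and 76.9% in those mice (9969 and 9971). They ran from 37.5% to 50% in mice 9901, 9949, 9968 and 9986, which had fewer UMIs. Precursors were at 58.3% and 80% in mice 9968 and 9969. The intervals cover counting error only. Over the 8 mice with at least 10 UMIs of the pair in both classes, the mean share was 49.2% in excitatory neurons, where single mice ran from 28.6% to 59.5%, and 34.9% in endothelial cells. The neuronal share was higher by 14.4 ± 16.6 percentage points (SD), in 7 of 8 mice (exact permutation test, two-sided, p = 0.0391, smallest possible 0.00781). The mural share differed from the endothelial one by 0.0192 points over 6 mice, higher in 3 of 6 (exact permutation test, two-sided, p = 1.00). Both contrasts were chosen after the values had been seen. Fn1 stood beside Col4a1 at 1.93 UMIs per Col4a1 UMI in endothelial cells and at 0.0817 in excitatory neurons.

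**Figure D2:**
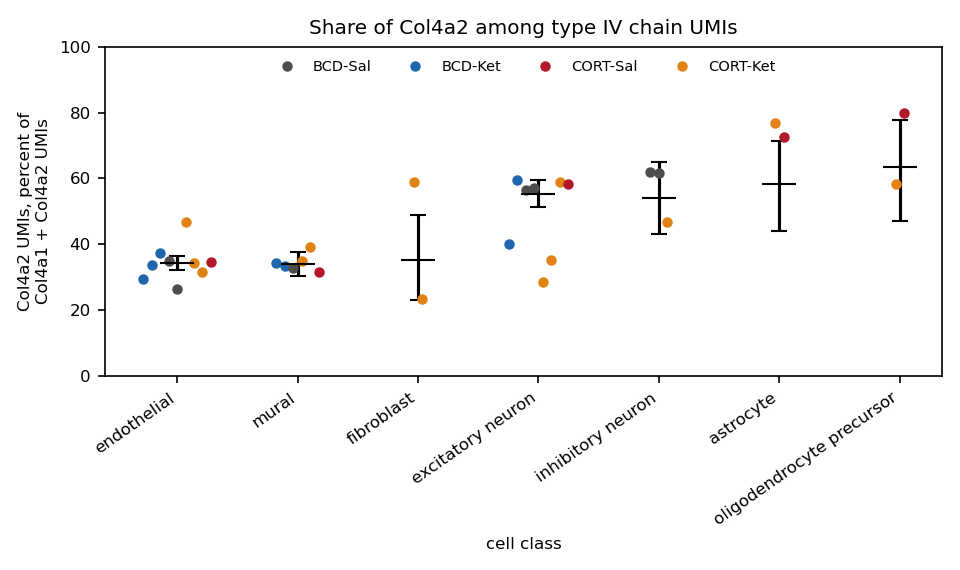
Col4a2 as a percent of Col4a1 plus Col4a2 UMIs, by cell class. Points are mice with at least 10 UMIs of the pair, coloured by group, and the bar is the value of all mice pooled with its exact binomial 95% interval, 34.2% in endothelial cells and 55.4% in excitatory neurons. In excitatory neurons 7 of 8 mice lay higher than in their own endothelial cells. Pooled astrocytes (58.2%) and oligodendrocyte precursors (63.4%) were as high as the neurons, with only 2 mice drawn in each.

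The remaining type IV chains were sparse. Col4a4 had 21 UMIs and Col4a3 13 in mural cells, against 2 and 6 in the much larger endothelial class. Col4a5 had 74 UMIs in astrocytes and 18 in mural cells against 2 in endothelial cells. Col4a3 and Col4a4 also appeared in choroid plexus cells, with 6 and 12 UMIs in 37 cells. These chains form the trimers of other basement membranes, such as that of the kidney glomerulus.

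The laminin alpha chains differed in the classes that carried them. Lama4 and Lama5, the alpha chains of endothelial laminins, were at 83.4 ± 22.8 CPM and 69.4 ± 13.3 CPM in endothelial cells (n = 9) and at 109 ± 52.6 CPM and 77.4 ± 97.2 CPM in mural cells (n = 7), where the libraries overlapped the endothelial ones for both. Lama4 had 0 UMIs in astrocytes, which allows at most 1.13 CPM at 3 counts, and 18 in excitatory neurons. Lama2, the alpha chain of the astrocyte and muscle laminin, whose loss causes a congenital muscular dystrophy, was at 213 ± 103 CPM in mural cells (n = 7) and 150 ± 84.4 CPM in astrocytes (n = 9), but at 9.23 ± 8.20 CPM in endothelial cells. The mural libraries ran from 144 to 440 CPM of Lama2 and the astrocyte libraries from 64.0 to 273, so that these classes overlapped, while the highest endothelial library had 28.1. Lama1, the alpha chain of the early embryonic laminin, had 20 of its 30 UMIs (66.7%) in the 27 fibroblast-like cells.

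Among the beta and gamma chains, Lamb2 was at 410 ± 94.9 CPM in mural, 274 ± 104 CPM in endothelial and 61.7 ± 39.9 CPM in astrocyte libraries. Lamb1 was at 99.4 ± 60.7 CPM in mural cells and at 4.14 ± 5.16 CPM in endothelial cells. The mural libraries ran from 26.4 to 200 CPM of Lamb1 and the endothelial ones from 0 to 14.5, without overlap. Lamc1, the common gamma chain, ran from 282 to 432 CPM in the 7 mural libraries and from 0 to 112 CPM in the 9 endothelial ones. Lamc3, a gamma chain of restricted expression, ran from 116 to 293 CPM in mural and from 17.6 to 48.0 CPM in endothelial libraries. Both gamma chains were thus separated without overlap between the vessel classes. The share of all genes separated so between these classes was not counted, here or for Nid1 and Fn1 below. In the test of this pair below, 9.29% of all genes were called higher and 9.31% lower in endothelial cells.

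Nid1, the nidogen that bridges laminin and type IV collagen, was at 267 ± 75.0 CPM in mural cells (152 to 365, n = 7) and at 51.8 ± 22.2 CPM in endothelial cells (28.1 to 95.9, n = 9), again without overlap. Nid2 was at 27.9 ± 23.7 CPM in endothelial cells. The proteoglycans were spread differently. Hspg2, which encodes perlecan, was at 122 ± 51.6 CPM in endothelial and 77.5 ± 44.0 CPM in mural libraries, and had 7 UMIs in astrocytes. Agrn, which encodes agrin, the organiser of receptor clusters at the neuromuscular junction, was read in nearly every class. Its mean was 324 ± 251 CPM in mural cells, with 1 library at 879 CPM, 207 ± 95.6 CPM in endothelial cells, 213 ± 102 CPM in inhibitory neurons, 165 ± 94.2 CPM in astrocytes, 134 ± 56.2 CPM in excitatory neurons, and it ran from 6.22 to 60.3 CPM in oligodendrocytes.

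Fn1, which encodes the adhesive glycoprotein fibronectin, had 87.4% of its UMIs in endothelial cells. The endothelial libraries ran from 971 to 1765 CPM (1146 ± 253, n = 9) and the mural ones from 269 to 586 CPM (395 ± 123, n = 7). Astrocytes held 5 UMIs of Fn1 and oligodendrocytes 0, whereas 27 cells of an immune class other than microglia and border macrophages held 22, in 4 cells with 13 in 1 of them. Sparc, a collagen-binding matricellular protein, was high in several classes. It was at 3410 ± 329 CPM in microglia (2791 to 3710, n = 6), 1181 ± 316 CPM in endothelial cells (575 to 1597, n = 9), 1168 ± 221 CPM in mural cells and 318 ± 197 CPM in astrocytes. The microglial libraries lay above every endothelial library, and 95.6% of microglia carried a Sparc UMI against 2.21% of inhibitory neurons, the class with the lowest share among the neurons (median UMI of their clusters 1587 and 1868).

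The mural values of mouse 9946 rested on 11 cells with 6823 UMIs, in which 1 UMI was 147 CPM. They were the highest of the 7 for Col4a1, Lama2, Lama5, Lamb2, Lamc3, Agrn and Fn1, and for Hspg2 and Lama4 they were 0.

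**Figure D3:**
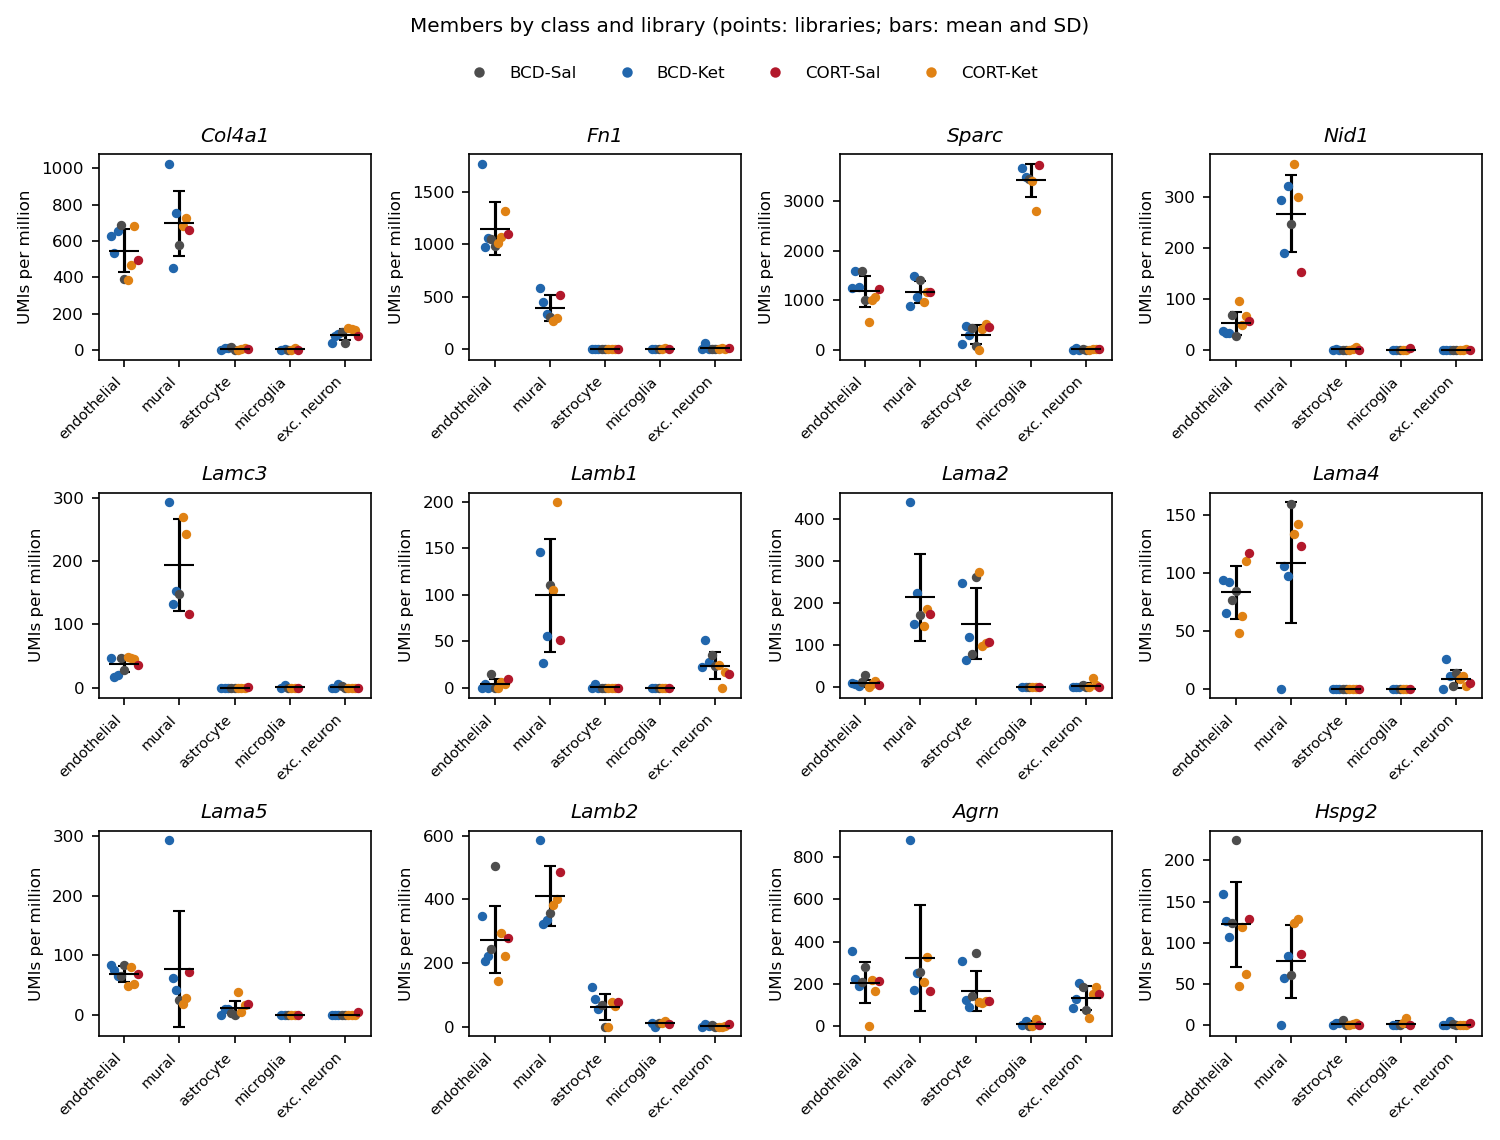
Level in CPM of 12 members in 5 cell classes, with 1 point per library coloured by treatment group and the mean and SD of the libraries as a bar. The endothelial and mural libraries of Lamb1, Lamc3, Nid1 and Fn1 did not overlap, and the share of all genes separated so was not counted. Within endothelial cells no member passed the adjusted threshold between CORT-Ket and BCD-Ket.

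The fibrillar and other collagens gave a different set of classes. In the 27 fibroblast-like cells the genes of type I and type III collagen, the main fibres of connective tissue, were at 1251 CPM for Col1a2 (73 UMIs, exact Poisson 95% interval 981 to 1573), 771 CPM for Col1a1 (45 UMIs, 562 to 1032) and 411 CPM for Col3a1 (24 UMIs, 264 to 612). These intervals also cover counting error only. Pooled over mice, 28 of the 59 members had their highest level in this class. The share of all genes highest in each class was not counted, here or for the library means. The class held 58355 UMIs, in which 3 counts were 51.4 CPM. Among the 28, Col7a1 (17.1 CPM), Col5a1 and Col6a3 (34.3 CPM each) lay under that. The fibroblast class was left out of the comparison of library means, where 15 members were highest in mural cells, 10 in choroid plexus, 8 in inhibitory neurons, 7 in oligodendrocyte precursors, 6 each in endothelial cells and excitatory neurons, 4 in microglia, 2 in astrocytes and 1 in oligodendrocytes. For 11 of the 59 the libraries of the highest class did not overlap those of the next class, as was so for 9.65% of all 15743 genes with at least 10 UMIs. These were Col1a2, Lamc1, Lamc3 and Nid1 (mural), Col4a3, Col8a1, Col8a2 and Col9a3 (choroid plexus), Col27a1 and Sparc (microglia) and Fn1 (endothelial). For the other 48 the libraries of the highest class overlapped those of the next class. The choroid plexus class rested on 2 libraries. Pooled, Col1a2 (1251 against 124 CPM), Nid1 (377 against 239) and Lamc3 (240 against 169) were higher in fibroblasts than in mural cells, and Lamc1 was lower (257 against 347). Col8a2 was at 290 CPM in the pooled ependymal cells, a class also left out of the library means, against 286 CPM in choroid plexus. Pooled Col4a3, Col8a1 and Col9a3 stayed highest in choroid plexus.

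Col27a1, a fibrillar-type collagen of cartilage, was at 323 ± 33.8 CPM in microglia (279 to 354, n = 6) and at 85.6 ± 52.5 CPM in mural cells. Col15a1 ran from 22.7 to 51.9 CPM and Col6a3 was at 19.9 ± 12.6 CPM in microglia. Neither was highest there when pooled. Col15a1 was at 343 CPM in fibroblasts (20 UMIs) against 31.0 CPM in microglia, and Col6a3 at 34.3 against 18.8 CPM. Col9a3, a chain of the cartilage type IX collagen, was at 1677 and 2861 CPM in the choroid plexus libraries and at 186 ± 63.4 CPM in oligodendrocyte precursors (n = 6). The network collagens Col8a1 and Col8a2 had 29 and 28 UMIs in choroid plexus cells, and Col8a2 had 49 in the 28 ependymal cells. Col11a2, a type XI chain, was at 140 ± 73.5 CPM in astrocytes and 108 ± 34.3 CPM in oligodendrocyte precursors, with 0 UMIs in mural cells.

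Several collagens were also read in neurons. Col25a1, whose product is a transmembrane collagen found in amyloid plaques, was at 189 ± 123 CPM in inhibitory and 55.2 ± 41.8 CPM in excitatory neurons (n = 9 each). Col19a1 was at 167 ± 156 CPM in inhibitory neurons, where single libraries ran from 0 to 419 CPM, and at 12.5 ± 9.47 CPM in excitatory neurons. Col23a1, another transmembrane collagen, was at 73.8 ± 42.7 CPM in excitatory neurons, which held 72.4% of its UMIs. Col6a1 was at 104 ± 70.0 CPM in excitatory and 149 ± 76.9 CPM in inhibitory neurons, with ranges of 31.8 to 200 and 52.4 to 297 CPM that overlapped. In the pooled fibroblasts Col23a1 was at 308 CPM (18 UMIs) and Col6a1 at 326 CPM (19 UMIs), above their pooled levels of 91.9 and 135 CPM in excitatory neurons.

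Within the excitatory neurons the members were uneven between clusters. A cluster of 790 cells led by Slit3, Igfn1 and Cpne7 (median 1275 UMIs) was set against one of 265 cells led by Cartpt, Ttc9b and Nrgn (median 3872 UMIs) in the 6 mice with at least 10 cells of both. Col4a1 was at 143 ± 58.4 CPM against 33.6 ± 13.2 CPM, Col6a1 at 213 ± 87.9 CPM against 41.7 ± 25.2 CPM, and Col23a1 at 159 ± 30.9 CPM against 42.8 ± 18.5 CPM. Col11a1 was at 91.2 ± 42.1 CPM against 1.23 ± 3.01 CPM. Each of these 4 was higher in the first cluster in 6 of 6 mice. Within the endothelium, a cluster of 75 cells led by Ssu2, Gkn3, Fbln5, Mgp and Bmx held 61 UMIs of Col18a1, the collagen that gives rise to endostatin, against 28 in the other 1010 cells. Cluster differences are descriptions, and the depth of the clusters differed with them.

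The 16 members that did not pass the filter on low counts of the class comparisons below had 14 to 110 UMIs. Col12a1 (110 UMIs), a collagen that coats other fibrils, and Col13a1 (56 UMIs), a transmembrane collagen, were highest in fibroblasts when pooled, at 428 CPM and 360 CPM. Among the others were Col15a1 (92), Col9a2 (52), Col6a3 (41), Lama1 (30), Col4a6 (24) and Lamb3 (17).

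The comparison of endothelial with mural cells asked which wall cell carried each member. Counts were summed per mouse and class, with the mouse as a block, and 43 of the 59 members passed the filter on low counts with 11037 genes in all. That filter took in all classes of the fit, also ependymal cells with 1 library. A member could thus pass on a class outside the pair, or on the class where it was high. The same holds for the class comparisons below. With only the 2 classes in the fit 12 members passed, and 7 of them were called. Of the 43, 14 differed in edgeR's quasi-likelihood test (Benjamini-Hochberg adjusted p at most 0.05 over all genes). In this fit only Fn1 was higher in endothelial cells, by a log2 fold change of 1.79 ± 0.23 (SE, adjusted p = 5.56e-10), where 9.29% of all genes tested were called in that direction. The other 13 were lower in endothelial than in mural cells, where 9.31% of all genes were. The median log2 difference of the 43 members was -0.64 against 0.05 for all genes, and -1.02 with 2 members that were at 0 in one class set to their bound and 8 that had 3 UMIs or fewer in both left out. DESeq2 called 11 of the members, and Fn1 was not among them (adjusted p = 0.122). The count on the endothelial side depended on the processing. It was 5 with likely doublets removed by Scrublet (1429 of 10985 genes) and 5 without mouse 9967 (1518 of 10954). At 500 genes or more it was 4 (1342 of 10744), and without mouse 9949 it was 4 (1299 of 10728). RLE scaling left it at 1 (964 of 11037). At a mitochondrial limit of 5% it was 1 (38 of 6431), with 0 members lower.

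Among the 13, the laminin and nidogen genes were Lama2 (log2 -4.33 ± 0.32), Lamb1 (-3.59 ± 0.42), Lamc1 (-2.37 ± 0.20), Lamc3 (-2.15 ± 0.26) and Nid1 (-2.23 ± 0.22). The fibrillar collagens were Col1a2 (-4.83 ± 0.41), Col27a1 (-4.09 ± 0.42), Col3a1 (-3.24 ± 0.59) and Col5a3 (-2.99 ± 0.63). Col4a3, Col4a4, Col4a5 and Col26a1 made up the rest, on 1 to 6 endothelial UMIs each. Col4a1 differed by 0.00 ± 0.17 (adjusted p = 1.00) and Col4a2 by 0.06 ± 0.18 (adjusted p = 0.894). Sparc (0.44 ± 0.23), Agrn (0.06 ± 0.21), Lama4 (-0.41 ± 0.24), Lamb2 (-0.44 ± 0.17, adjusted p = 0.0558) and Hspg2 (0.57 ± 0.25) did not pass either.

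**Figure D4:**
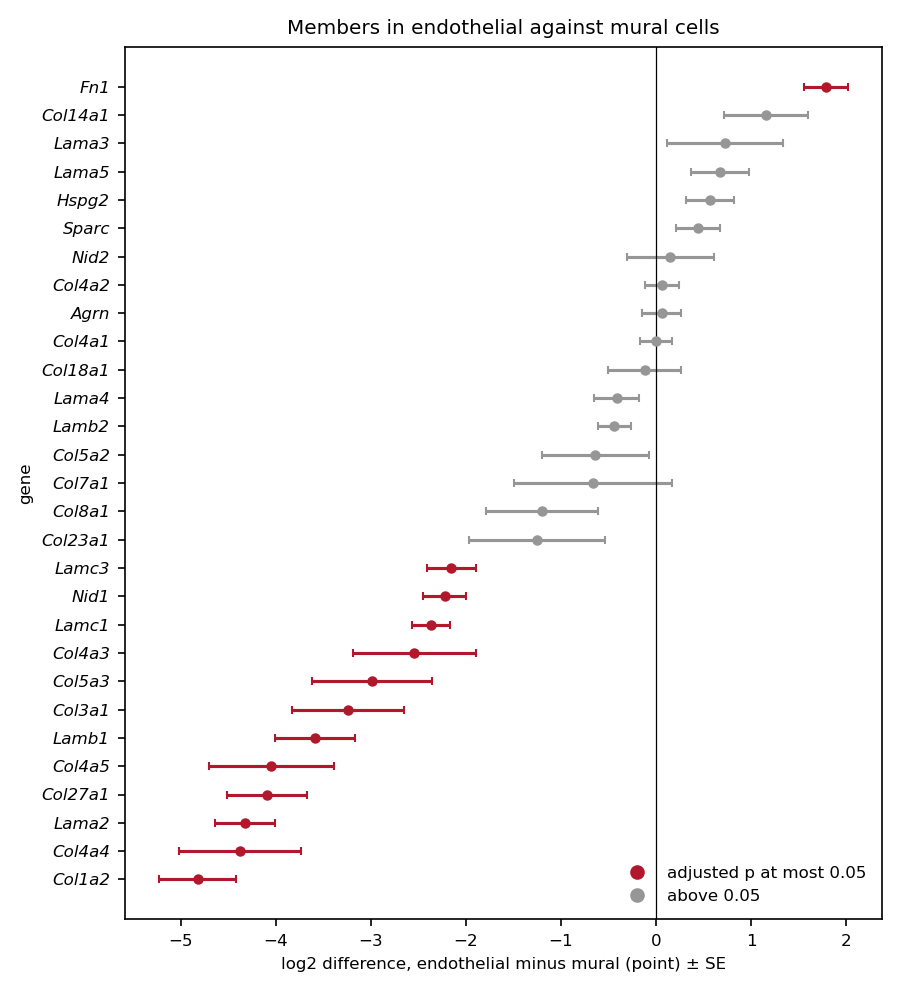
Log2 difference of endothelial minus mural cells with its SE (edgeR, mouse as a block) for the 29 members with at least 10 UMIs in both classes together. Col4a1 and Col4a2 lay near 0, Fn1 was on the endothelial side, and Lama2, Lamb1, Lamc1, Lamc3 and Nid1 were on the mural side. The values of genes with 3 UMIs or fewer in a class depend on the prior count of the fit.

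The mural class held endothelial transcripts. All 15 endothelial markers were read in it, at 1.06% to 1.55% of UMIs per library against 2.65% to 3.63% in endothelial cells, and Cldn5, which encodes the tight junction protein claudin 5, was at 1595 CPM against 5019 CPM. The 14 astrocyte markers made up 0.537% to 0.90% of mural UMIs (1 of 14 at 0) against 0.0319% to 0.203% of endothelial UMIs (0 of 14 at 0), and the 18 fibroblast markers 0.0879% to 0.20% (1 of 18 at 0) against 0.0189% to 0.0967% (7 of 18 at 0). Of the members called higher in mural cells, Lama2 and Col4a5 had most of their UMIs in astrocytes (58.5% and 61.2%), and Col1a2 and Col3a1 were at 1251 and 411 CPM in the pooled fibroblasts. The part of these other transcripts in the mural values was not tested. Mural cells were split by their UMIs of the endothelial markers, a choice made after seeing the data. The 95 cells with none (median 1033 UMIs) had Fn1 at 30.5 CPM (4 UMIs, exact Poisson 95% interval 8.31 to 78.1), the 94 cells with 1 to 9 had 44.4 CPM (17.9 to 91.5), and the 79 cells with 10 or more (median 3583 UMIs) had 642 CPM (567 to 724). Of the 277 Fn1 UMIs of the mural class, 266 thus lay in barcodes that also carried at least 10 endothelial marker UMIs.

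In the 95 mural cells without an endothelial marker UMI, Col4a1 was at 557 CPM (436 to 700), Col4a2 at 305 CPM (218 to 415) and Sparc at 1228 CPM (1045 to 1433), close to the pooled endothelial levels of 572, 297 and 1309 CPM. Lamc1 was at 511 CPM (396 to 649), Nid1 at 389 CPM (290 to 511) and Lama2 at 259 CPM (180 to 362) in them, against 241, 174 and 130 CPM in the 79 cells with 10 or more. Lama5 was at 22.9 CPM (3 UMIs, 4.72 to 66.8) against 69.9 CPM in endothelial cells. With the 79 barcodes left out, all 14 members above were again called in edgeR. That choice removes barcodes for their endothelial transcripts, and most mural Fn1 UMIs go with them. The share of all genes called higher in endothelial cells went from 9.29% to 17.1% (8.46% were called lower). The repeated calls are therefore not read as support for the 14. Nor are the 6 further members called, 5 of them on the endothelial side, read as differences. Col4a1 (0.27 ± 0.19, edgeR adjusted p = 0.354) and Col4a2 (0.21 ± 0.22, adjusted p = 0.558) did not pass in that fit, whose median over all genes was 0.35.

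Against astrocytes, whose end feet cover the vessel, 30 members differed from endothelial cells. Of these 18 were higher in endothelial cells (25.2% of all genes were) and 12 lower (32.8% of all genes). Fn1 (log2 8.76 ± 0.38), Col4a1 (5.82 ± 0.25), Hspg2 (5.02 ± 0.34), Col4a2 (4.47 ± 0.24) and Nid1 (4.45 ± 0.42) were higher, and Lama2 (-3.72 ± 0.29), Col11a2 (-5.55 ± 0.40), Col9a3 (-4.22 ± 0.43), Col16a1 (-4.81 ± 0.44), Col27a1 (-3.11 ± 0.39) and Col1a1 (-3.65 ± 0.55) were lower in endothelial cells. Of the lower members named here Col1a1 had the largest adjusted p (1.35e-09, edgeR). The members' median was 0.24 against -0.16 over all genes, or 0.77 with 6 members at their bound and 6 left out.

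Mural cells differed from astrocytes in 29 members, 24 higher (21.6% of all genes) and 5 lower (24.3%). Nid1 (6.67 ± 0.36), Fn1 (6.97 ± 0.44), Col4a1 (5.82 ± 0.27), Lamc1 (4.11 ± 0.24) and Lamb2 (2.12 ± 0.19) were higher, and Col11a2, Col1a1, Col11a1, Col16a1 and Col9a3 lower, the first 3 with 0 mural UMIs. Without the 79 barcodes the Fn1 difference was 3.40. Lama2 (0.60 ± 0.21) and Agrn (0.62 ± 0.22) passed by little (adjusted p = 0.0127 and 0.0129). Lama2 no longer passed in DESeq2 (0.47, adjusted p = 0.0733), at 30 cells or more (0.48, adjusted p = 0.0508), at 500 genes or more (0.47, adjusted p = 0.0793) or with no replicate block (0.54, adjusted p = 0.070). Agrn no longer passed with RLE scaling (0.49, adjusted p = 0.0620), in DESeq2 (0.46, adjusted p = 0.152), at 30 cells or more (0.47, adjusted p = 0.0676), without those barcodes (0.33, adjusted p = 0.392), without mouse 9971 of CORT-Ket (0.50, adjusted p = 0.0768) or without mouse 9986 of BCD-Ket (0.52, adjusted p = 0.0678). The median of the members was 1.27 against -0.13 for all genes, or 1.95 with 9 members at their bound and 5 left out.

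Along the oligodendrocyte lineage, 16 members differed between precursors and oligodendrocytes, 14 higher in precursors (26.5% of all genes) and 2 lower (14.6%). Col9a3 (1.43 ± 0.27), Col11a2 (2.15 ± 0.39), Agrn (2.19 ± 0.34), Col27a1 (2.78 ± 0.49) and Col4a2 (4.11 ± 0.82) were higher in precursors. The precursor class joined a cluster of 388 cells with 13 cells led by 9630013A20Rik, Epcam, Enpp6 and Bmp4. Those 13 cells held 46 Col9a3 UMIs (630 CPM) against 99 (147 CPM), and 13 Col11a2 UMIs (178 CPM) against 65 (96.3 CPM). They also held 11 Lamc1 UMIs, 8 of them in 1 cell. Their part in the differences was not tested. Col11a1, a type XI chain, had 49 UMIs in precursors and 0 in oligodendrocytes, which allows at most 2.96 CPM. Sparc was lower in precursors (-1.69 ± 0.38) and Lama2 had 25 UMIs in oligodendrocytes and 0 in precursors. The median of the members was 0.78 against 0.29 for all genes, and 2.21 with 6 at their bound, after 25 of the 43 with 3 UMIs or fewer in both classes were left out. Lamc1 (0.82 ± 0.34, adjusted p = 0.0446) was lost when any 1 of 8 libraries was left out, all but that of mouse 9946 (0.57 to 0.78, adjusted p = 0.0759 to 0.257).

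The treatment comparisons asked whether corticosterone, ketamine or both moved the members within a class. In endothelial cells the libraries had Col4a1 at 687 and 393 CPM (BCD-Sal), 629, 534 and 657 CPM (BCD-Ket), 496 CPM (CORT-Sal) and 384, 469 and 682 CPM (CORT-Ket), and the groups overlapped. Fn1 was at 1047 and 982 CPM, 1765, 971 and 1062 CPM, 1099 CPM, and 1007, 1069 and 1313 CPM in the same order. The highest Fn1 value was that of mouse 9946, and without it the 8 libraries lay between 971 and 1313 CPM. Sparc was at 1592 and 1010 CPM, 1258, 1597 and 1279 CPM, 1236 CPM, and 575, 1004 and 1077 CPM. The lowest, mouse 9967, had 12 Sparc UMIs in 31 cells.

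No member passed the test in any of the 14 comparisons of treatments within endothelial cells, mural cells, astrocytes, microglia and oligodendrocyte precursors (edgeR, adjusted p at most 0.05, 4 to 19 members tested in each). DESeq2 also called 0. Of 204 tests of a member, 4 had an unadjusted p under 0.05, fewer than that threshold lets through with no difference. The share of all genes called was as low, at 0.0513% (CORT-Ket against BCD-Ket), 0% (BCD-Ket against BCD-Sal), 0.0128% (CORT-Sal against BCD-Sal) and 0.0128% (CORT-Ket against CORT-Sal) in endothelial cells, and at 0.0112%, 0%, 0% and 0% in astrocytes. For CORT-Ket against BCD-Ket and against CORT-Sal it was 0% and 0% in mural cells, 0% and 0% in microglia, and 0.455% and 0.145% in oligodendrocyte precursors. These comparisons share groups, and CORT-Ket, BCD-Ket and the single CORT-Sal library enter several of them.

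For CORT-Ket against BCD-Ket in endothelial cells, Sparc differed by log2 -0.70 ± 0.39 (SE, edgeR adjusted p = 1.00, unadjusted p = 0.0731), Col4a1 by -0.28 ± 0.38, Fn1 by -0.25 ± 0.38, Hspg2 by -0.56 ± 0.37 and Lama4 by 0.00 ± 0.39. Lamc3 differed by 0.96 ± 0.50 (unadjusted p = 0.0543) and Nid1 by 0.72 ± 0.46, the latter from 37.6, 33.5 and 32.7 CPM in BCD-Ket to 95.9, 47.8 and 65.8 CPM in CORT-Ket. The 95.9 CPM was that of mouse 9967, whose endothelial class held only 31 cells with 20855 UMIs. Of the 17 members tested 4 were positive, and the median was -0.25 against -0.04 for all 7791 genes. The SEs of the 17 ran from 0.357 to 0.850, and values within them do not show that the groups were equal. The endothelial libraries differed in depth (median 462 to 2639 UMIs per cell) and in the share of dissociation-response genes (1.12% to 4.57% of UMIs, highest in mouse 9949 of BCD-Ket), and the part of these in the values was not tested.

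**Figure D5:**
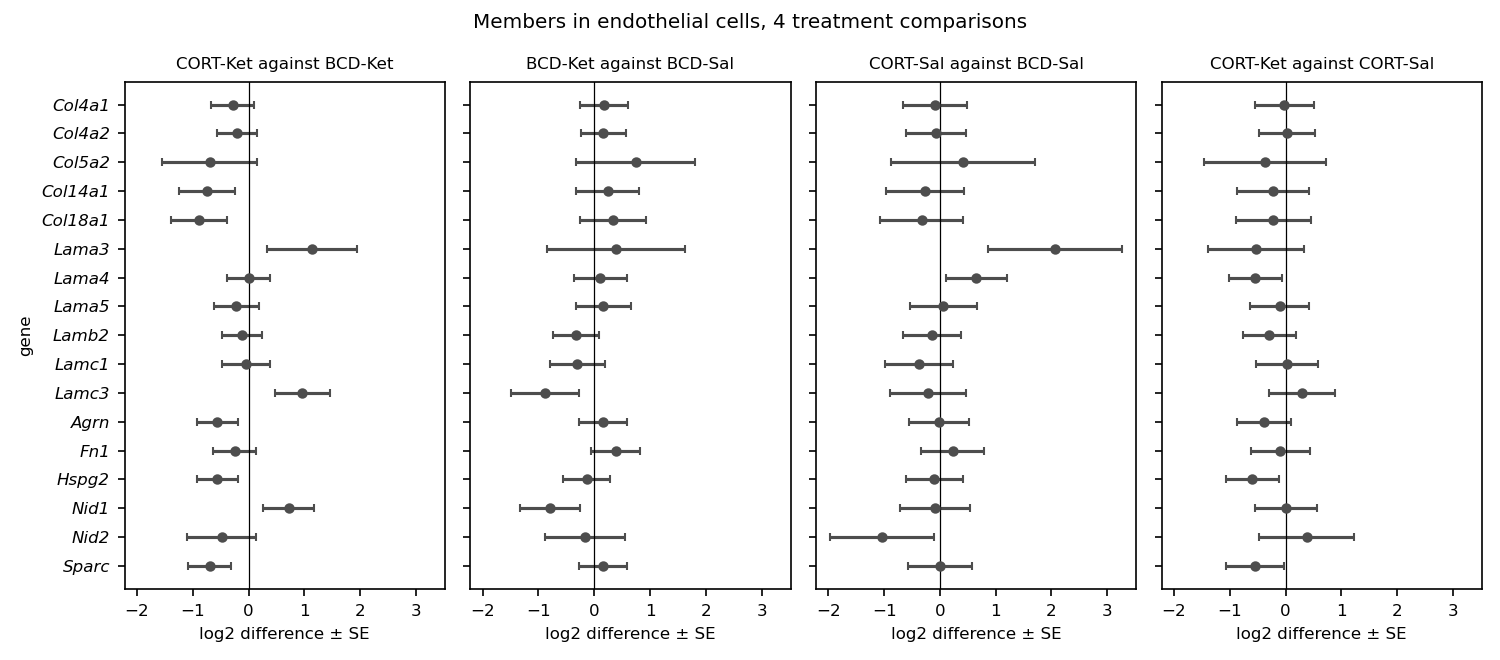
Log2 difference with its SE (edgeR) of the 17 members tested in endothelial cells, in 4 treatment contrasts. No member passed the adjusted threshold, and most intervals of 1 SE reached or lay near 0.

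In the other endothelial contrasts the directions were mixed. For BCD-Ket against BCD-Sal 11 of 17 members were positive with a median of 0.16 (0.05 for all genes), for CORT-Sal against BCD-Sal 6 of 17 with -0.08 (0.01), and for CORT-Ket against CORT-Sal 5 of 17 with -0.22 (-0.02). Between BCD-Ket and BCD-Sal, Fn1 differed by 0.38 ± 0.43, Col4a1 by 0.17 ± 0.43, Nid1 by -0.80 ± 0.54 and Lamc3 by -0.88 ± 0.60. Lamc3 stood at 17.6 and 20.8 CPM in BCD-Ket mice 9949 and 9986, while mouse 9946 of the same group had 46.9 CPM and the BCD-Sal mice had 47.3 and 28.1 CPM. In mural cells 12 of 19 members and in astrocytes 10 of 18 were positive for CORT-Ket against BCD-Ket, with medians of 0.25 and 0.06.

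The 4 members under an unadjusted p of 0.05 lay in 4 different comparisons. They are given as values and are not read as differences. Lamb1 in mural cells differed by 1.90 ± 0.63 between CORT-Ket and BCD-Ket (edgeR, unadjusted p = 0.00439, adjusted p = 0.999), on 106 and 200 CPM in CORT-Ket against 147, 26.4 and 55.8 CPM in BCD-Ket, where 147 CPM was 1 UMI of the 11 mural cells of mouse 9946. Col11a1 in oligodendrocyte precursors differed by -1.83 ± 0.75 in the same contrast (edgeR, unadjusted p = 0.0145, adjusted p = 1.00), with 16.7 and 40.0 CPM against 68.1 and 104 CPM. Its values were 118 CPM in BCD-Sal and 73.7 CPM in CORT-Sal. Col27a1 in astrocytes differed by -1.82 ± 0.81 between CORT-Sal and BCD-Sal (edgeR, unadjusted p = 0.0244, adjusted p = 0.988). Col1a2 in mural cells differed by -1.40 ± 0.69 between CORT-Ket and CORT-Sal (edgeR, unadjusted p = 0.0489, adjusted p = 1.00).

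Microglial Sparc was at 3428 CPM in BCD-Sal, 3657 and 3480 CPM in BCD-Ket, 3710 CPM in CORT-Sal and 3394 and 2791 CPM in CORT-Ket. CORT-Ket differed from BCD-Ket by -0.24 ± 0.38 (edgeR adjusted p = 1.00). The CORT-Ket libraries were the lowest of the 6, by a difference smaller than its SE. Lamc1 in mural cells was at 406 CPM in BCD-Sal, 293, 282 and 432 CPM in BCD-Ket, 283 CPM in CORT-Sal and 432 and 414 CPM in CORT-Ket, and these groups overlapped (0.37 ± 0.47, CORT-Ket against BCD-Ket).

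The genes that make, read and remodel this matrix gave the same count. Of 29 listed genes for collagen folding, processing and crosslinking 8 to 15 were tested in a comparison, of 22 laminin and collagen receptors 7 to 11, of 20 matrix proteases and their inhibitors 3 to 9, of 27 other basement membrane and perivascular proteins 2 to 16, and of 14 lecticans, tenascins and link proteins 2 to 8. None of them passed in any of the 14 treatment comparisons (edgeR). Of 572 tests 15 had an unadjusted p under 0.05, again fewer than that threshold lets through with no difference. Of these, 10 were among the 130 tests of the other basement membrane and perivascular proteins.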

How the data were processed

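The authors deposited unnormalized UMI counts for each gene and barcode, written by Cell Ranger 3.0.2 according to the matrix header. Seurat 3.1.1 and mm9 are named in the submitters' processing notes, and which gene annotation was counted remains unknown here. Genes were placed on NCBIM37 (GENCODE M1) by identifier. The members, marker lists and other lists were chosen with earlier results of these data known, and any member could be named in the text.

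Barcodes with at most 12.5% mitochondrial UMIs and at least 200 genes were kept. They were clustered with scanpy 1.11.5 and leidenalg 0.10.2 (2000 variable genes, 30 components, 20 neighbours, resolution 0.8), without the members and 89 dissociation-response genes. Clusters were named where at least 3 markers were 4-fold higher than elsewhere. A cluster drawn almost wholly from 1 library was left unnamed whatever its markers. No doublets were removed in the reported values.

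UMI counts were summed per mouse and class (at least 10 cells). They were tested with edgeR 4.0.16 (R 4.3.3, quasi-likelihood, TMM, filterByExpr, Benjamini-Hochberg adjustment over all genes tested), with DESeq2 1.42.0 as an alternative. Treatments were fitted with all 4 groups together. Class comparisons had the mouse as a block, since the classes come from the same animals. The tests were checked on simulated counts with 1 spread for all genes and no mouse effect. Only genes with a mean of at least 10 UMIs per library and class were changed in them, so sparser members were not covered by that check. Kept depth was 287013 to 2332898 UMIs per library. The Col4a2 shares were tested by an exact permutation of the signs of the differences within mice. The exact binomial and Poisson intervals were computed with scipy 1.17.1. Nothing states separate cultures or litters beyond 1 library per mouse. The treatment p-values rest on the spread between mice of a group, which the single CORT-Sal library cannot give for its own group. Those of the class comparisons rest on the spread left after the mouse block, shared over all classes in the fit. A result on 1 gene is not reported here.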

Additional observations from a re-analysis of the deposited data

Results flagged for a closer look

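Both results here lie outside the barcodes used above. The kept barcodes of mouse 9970 (CORT-Sal) held 4435 member UMIs, 0.120% of 3680877, against 0.223% in the kept barcodes of the other 9 libraries. Sparc (900 UMIs), Agrn (564), Col4a1 (298) and Col4a2 (292) led there. When this library was clustered with the others, 2348 of its cells fell in 1 unnamed cluster, 11 in the endothelial and 0 in the mural class. That cluster was left unnamed, whatever its markers, because almost all of its cells came from this library. The barcodes of the 9 libraries that were not kept held 16640 member UMIs, 0.0583% of 28544155, of which Sparc was 7431, Agrn 1041 and Col4a1 656. They have no cell class, and no level was drawn from them.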

How the results depend on the processing

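The count of 0 members in each of the 14 treatment comparisons stayed at 0 in all 310 fits under an alternative, leaving out each library included. Of 2054 alternative fits of the 89 member calls between classes, 1961 kept direction and call, 89 kept the direction only and 4 turned. All 4 were at a mitochondrial limit of 5% (1904 barcodes): Agrn (-0.54) and Lama2 (-0.33) for mural against astrocyte, and Col27a1 (-0.71) and Sparc (0.25) for precursor against oligodendrocyte. At that limit the calls were 1 for endothelial against mural, 14 for endothelial against astrocyte, 6 for mural against astrocyte and 0 along the lineage, with 22 members tested. With only the 2 classes in a fit they were 7, 12, 12 and 3, where 12 members (3 along the lineage) passed the filter. At 30 cells or more they were 9 for endothelial against mural and 18 for mural against astrocyte. DESeq2 lost 19 of the calls. The highest class stayed the same for 24 of 59 members with pooled CPM, which admits the fibroblasts, and for 27 at the 5% limit. Without 1 library each, calls ranged from 11 to 18, 24 to 30, 25 to 29 and 13 to 17 in the order above, and the highest class stayed for 47 to 57 members. Col4a3 and Col26a1 (endothelial against mural) were lost without mouse 9968, and Col16a1 and Col4a1 (lineage) without mouse 9949. RLE scaling moved the median of all genes from -0.16 to -0.36 for endothelial against astrocyte and from -0.13 to -0.28 for mural against astrocyte.

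The pairing of classes by mouse changed little: with no replicate block the calls were 14, 30, 28 and 15. Treatments could not be paired, each mouse being in 1 group. At this depth 16 members fell under the filter on low counts. With no filter all 59 were tested and the calls were 16, 31, 30 and 18.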
